A study of Mus musculus with 8 samples.

Results

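The genes described here are Ncr1, Klrb1c, Klrd1, Klrk1, Klre1, Klrg1 and Xcl1, which are named for natural killer (NK) cells and are 7 of the 30702 named genes of the array. They were chosen by symbol, and the brightest probe set of a gene (the group of probes summed into 1 value) was to stand for it. Each of the 7 had a single probe set with its symbol alone, so there was nothing to choose between.

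The study measured RNA in colon tissue of C57BL/6 mice that all carried Rag1-/-, which leaves a mouse without mature T or B cells of its own. The groups were 3 naïve T-injected mice with severely inflamed colons and 5 Treg-injected mice with non-inflamed colons, with 1 array per mouse. Both groups were therefore given T cells, injected as naïve cells in the inflamed mice and as regulatory cells in the controls, and NK cells were the host's own. How many injected cells the colons held at sampling, and in what state, was not measured. Cells were given at 10 weeks of age and colons were taken 2 to 4 months later. The stated age of 4 to 5 months covers only part of that span, and the sources name both the distal colon and a strip of the whole colon as the tissue. The replicates are called biological, and nothing says whether mice shared a cage or litter. By Xist and Y-linked transcripts, inflamed array 3 and control arrays 3, 4 and 5 had the pattern of females, and the other arrays that of males.

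NK cells kill stressed or infected cells and release interferon-gamma, and balance activating against inhibitory receptors to do so. Most of the 7 genes encode lectin-like receptors of the NK gene complex. Klrd1 (CD94) is the shared partner of the NKG2 chains, Klrk1 (NKG2D) recognises stress ligands, Klrb1c is the NK1.1 antigen of C57BL/6 mice, and Klre1 pairs with Klri1 or Klri2. Klrg1 is an inhibitory receptor for cadherins, found also on T cells and group 2 innate lymphoid cells. Ncr1 (NKp46) is an immunoglobulin-like activating receptor of NK cells, group 1 innate lymphoid cells and some group 3 cells. Xcl1 is no receptor but the chemokine lymphotactin, released by NK and activated T cells to draw in Xcr1-bearing dendritic cells. Several of these genes are thus not particular to NK cells.

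Xcl1 was the single member that passed the test between inflamed and control colon, higher in inflamed colon and close to the threshold. Klrd1 stood well above the controls on 1 inflamed array only. Ncr1 was slightly lower on all 3 inflamed arrays, without passing the test. The group means of Klrb1c, Klrk1, Klre1 and Klrg1 differed by less than 0.10 log2 units. Of the 7 members, 1 was higher and 0 were lower at an adjusted p under 0.05, against 8.06% of all genes higher, 5.04% lower and 13.1% in either direction. At an unadjusted p under 0.05 in limma, 2 members were higher (Xcl1 and Klrd1) and 1 was lower (Ncr1), against 15.5% of all genes higher and 13% lower. The members' median difference, inflamed minus control, was 0.04 log2 units, and that of all genes was -0.01. With 7 members, a single call more or less moves their share past these values.

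Values are log2 intensities of the authors, and differences are inflamed minus control with their limma standard error (SE) after ±. Adjusted p-values are those of limma with Benjamini-Hochberg adjustment over all 30702 genes, and 95% intervals are not adjusted. For single genes an exact two-sided permutation p over all 56 splits of the 8 arrays is given too, whose smallest possible value is 0.0179. Signal from whole tissue cannot tell fewer cells of a type from less RNA per cell.

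**Figure D1:**
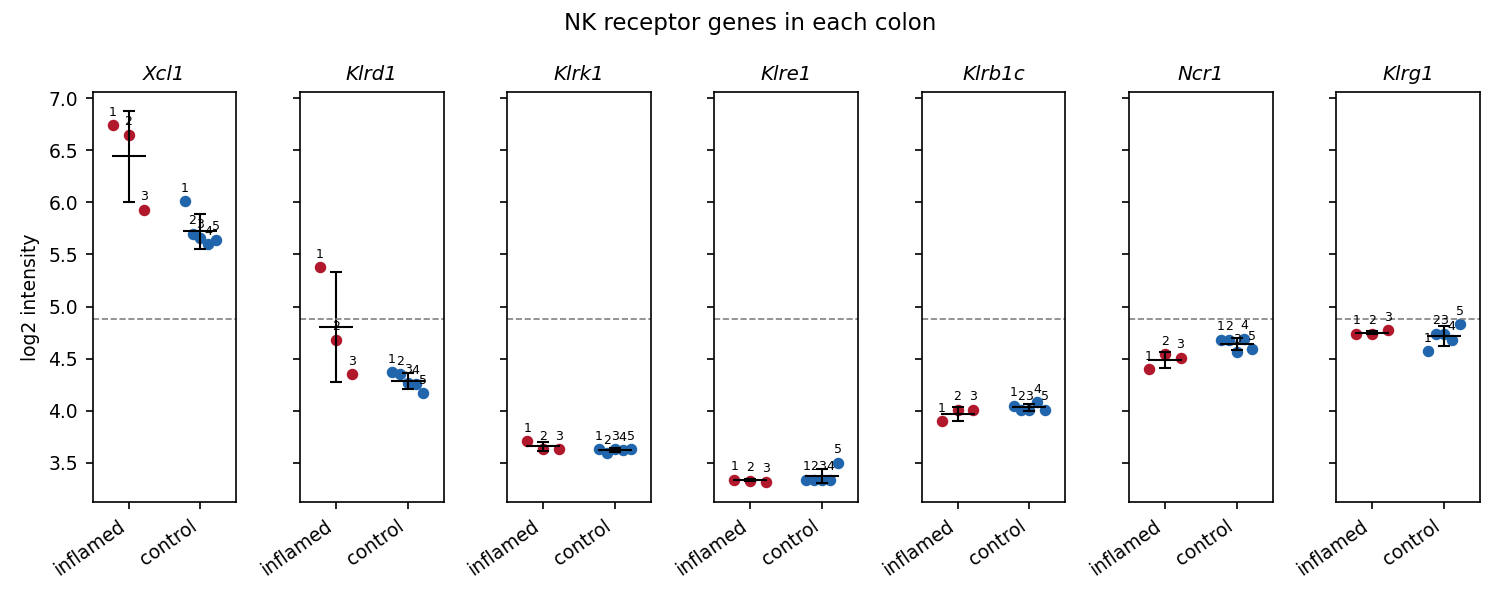
Log2 intensity of the 7 genes on each array, with inflamed colon in red at the left and control colon in blue at the right of each panel, points numbered by replicate, and black bars for the mean ± SD (n = 3 and 5). The dashed line is the median of all transcript clusters, 4.88. Only Xcl1 lies above it on all 8 arrays, and Klrd1 on inflamed array 1.

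Xcl1, the lymphotactin gene, was at 6.74, 6.65 and 5.93 on inflamed arrays 1, 2 and 3, against 6.01, 5.70, 5.66, 5.60 and 5.64 on control arrays 1 to 5. Inflamed arrays 1 and 2 stood above every control, while inflamed array 3 lay below control 1, so the groups overlapped. The group means were 6.44 ± 0.44 in inflamed colon (SD, n = 3) and 5.72 ± 0.16 in control colon (SD, n = 5). The gene rose by 0.72 ± 0.19, or 1.65-fold with a 95% interval of 1.21 to 2.24 (adjusted p = 0.0488, exact permutation p = 0.0357). The call ended when inflamed array 1 or 2 or any 1 of the 5 controls was left out (adjusted p = 0.0527 to 0.157), with differences of 0.57 to 0.79, and was firmer without inflamed array 3 (0.97, adjusted p = 0.0057). It also ended when values of all genes were floored at 4.88 (adjusted p = 0.0875). All 8 Xcl1 values lie above that floor, so its difference stayed at 0.72 and only the fit over all genes changed.

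Klrd1, which encodes CD94, was at 5.38, 4.68 and 4.35 on inflamed arrays 1, 2 and 3, against 4.37, 4.35, 4.27, 4.26 and 4.17 on control arrays 1 to 5. Inflamed array 1 was about a log2 unit above the controls, array 2 was just above them, and array 3 lay within their range. The difference was 0.52 ± 0.21 with a 95% interval of 0.04 to 1.01 (adjusted p = 0.149, exact permutation p = 0.0536). Without inflamed array 1 it was 0.23 (adjusted p = 0.219), and without inflamed array 3 it was 0.75 and passed (adjusted p = 0.0438).

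Ncr1, the gene of NKp46, was at 4.40, 4.54 and 4.51 on inflamed arrays 1, 2 and 3, against 4.68, 4.68, 4.56, 4.69 and 4.59 on control arrays 1 to 5. All 3 inflamed values lay below all 5 controls, a separation in this direction that 9.17% of all genes showed, and in either direction 21.2%. It was the single member whose groups did not overlap, and 0 members were wholly above the controls, as were 12% of all genes. The difference was -0.16 ± 0.05 with a 95% interval of -0.27 to -0.05 (adjusted p = 0.0738, exact permutation p = 0.0357). All 8 values lay under 4.88, the median of all transcript clusters, where RMA compresses differences. The call was made when arrays were weighted by their quality (-0.20, adjusted p = 0.0262), and by no other alternative tried. These weights were 1.71, 0.17 and 0.84 for inflamed arrays 1, 2 and 3, so array 1, with the lowest Ncr1 value, counted most. Without inflamed array 1 the difference was -0.11 (adjusted p = 0.206).

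The arrays gave nearly the same values for Klrk1 and Klrb1c. Klrk1, the gene of NKG2D, was at 3.71, 3.63 and 3.63 on inflamed arrays 1, 2 and 3, against 3.63, 3.59, 3.63, 3.62 and 3.63 on control arrays 1 to 5. Its difference was 0.04 ± 0.03 with a 95% interval of -0.03 to 0.10 (adjusted p = 0.419). Klrb1c, the NK1.1 gene, was at 3.90, 4.01 and 4.01 in inflamed colon and at 4.05, 4.01, 4.01, 4.08 and 4.01 in control colon. Its difference was -0.06 ± 0.04 with a 95% interval of -0.15 to 0.02 (adjusted p = 0.32). The groups of both genes overlapped, and inflamed array 1, the brightest for Xcl1 and Klrd1, held the lowest Klrb1c value of the 8.

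Klre1, a partner of the KLRI chains, was at 3.34, 3.33 and 3.32 in inflamed colon, against 3.34, 3.34, 3.34, 3.34 and 3.50 in control colon. Control 5 stood alone above the other 7 arrays, and the difference was -0.04 ± 0.04 with a 95% interval of -0.14 to 0.06 (adjusted p = 0.556). Klrg1, the cadherin receptor, was at 4.74, 4.74 and 4.77 in inflamed colon, against 4.57, 4.74, 4.74, 4.68 and 4.83 in control colon. The 3 inflamed values fell inside the control range, and the difference was 0.04 ± 0.06 with a 95% interval of -0.09 to 0.17 (adjusted p = 0.69).

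The level of the probe sets bears on how these small differences read. Ncr1, Klrb1c, Klrk1, Klre1 and Klrg1, 5 of the 7, lay under the median of all transcript clusters (4.88) on all 8 arrays, as did 34.1% of all genes, and only 1.6% of such dim genes were called. The median of the negative controls was 4.92 to 5.11, depending on the array. Their 95th percentile was 7.87 to 8.04, above every value of Xcl1 and Klrd1, so 4.88 is not a limit of detection. The same value stood on 3 or more arrays for 4 members, up to 5 arrays for Klrb1c and Klrk1, and for 39.7% of all genes. For these 5 genes the files therefore do not tell a steady level of transcript from signal at background, and a missing difference does not show that NK cells were unchanged in number. Klrd1 passed 4.88 on inflamed array 1 only, and values above 4.88 do not show that Xcl1 was clear of background.

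Klre1, Klrd1 and Klrk1 are consecutive coding genes on chromosome 6 in RefSeq's gene table for GRCm38.p6. Of these 3 neighbours, Klrd1 differed by 0.52, Klrk1 by 0.04 and Klre1 by -0.04 log2 units. Klrb1c lies on the same chromosome between its relatives Klrb1 and Klrb1b, and Klrg1 apart from both groups. Relatives in this complex have similar sequences, so probes can share signal between them.

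Promoter sequences of 5 members were matched by symbol in RefSeq's table for GRCm38.p6, each from 250 bases before to 50 bases after a gene start. The promoters of Xcl1 and Ncr1 are shown because these genes had the largest differences upward and downward. Capitals mark a T-box core (TCACAC, or GTGTGA on the other strand) and a Runx site (TGTGGT, or ACCACA on the other strand), letters bound by the lymphocyte factors T-bet or Eomes and Runx3. These motifs do not overlap in the sequences shown. The Xcl1 window is chr1:164935473-164935772 on the minus strand and the Ncr1 window, 1 of 2 listed, is chr7:4337465-4337764 on the plus strand.
Xcl1: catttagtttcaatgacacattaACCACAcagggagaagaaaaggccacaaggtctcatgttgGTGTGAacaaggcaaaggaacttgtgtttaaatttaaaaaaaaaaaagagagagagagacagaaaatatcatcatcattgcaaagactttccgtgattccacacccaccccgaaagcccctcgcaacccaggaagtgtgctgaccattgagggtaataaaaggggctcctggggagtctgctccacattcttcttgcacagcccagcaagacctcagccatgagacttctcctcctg
Ncr1: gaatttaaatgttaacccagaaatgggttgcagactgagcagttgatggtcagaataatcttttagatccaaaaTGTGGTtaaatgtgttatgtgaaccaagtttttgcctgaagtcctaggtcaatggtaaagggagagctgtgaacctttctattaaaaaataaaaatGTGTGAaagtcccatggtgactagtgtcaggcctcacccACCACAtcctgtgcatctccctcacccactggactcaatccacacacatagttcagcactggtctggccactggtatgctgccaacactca
Xcl1 held 1 T-box core and 1 Runx site, and Ncr1 held 1 T-box core and 2 Runx sites. Across members, a Runx site stood in a window of all 5 genes and a T-box core in those of 3, Ncr1, Klre1 and Xcl1. Of all 32851 promoter windows, 14.5% held the T-box core and 16.8% the Runx site. Members were counted by gene over any of its windows and the background by window, so the shares are unlike measures. Of the 2 windows of Klre1, 1 held the Runx site. The matches are a description of letters, and both genes with opposite differences carried both motifs.

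Calls were also made among receptors beyond the 7 genes, some of them found on T or myeloid cells too and not all of the same families. Of 26 other NK receptor genes measured, 10 were higher in inflamed colon and 0 were lower (12 and 0 at an unadjusted p under 0.05), with a median difference of 0.11 log2 units, against 8.06% of all genes called higher. The counts fell to 6 without inflamed array 1 or control 2, 3, 4 or 5, and to 4 with a floor on low values. Lectin-like receptors made up 3 of the 10, Klra2, Klrb1f and Klrc1. Klra1, Klra4, Klra5 and Klra8 had no probe set of their own and are not analysed here.

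Klra2, the gene of Ly49B, known in mice from myeloid cells rather than NK cells, was at 6.16, 6.44 and 7.03 on inflamed arrays 1, 2 and 3, against 4.34, 4.35, 4.09, 4.08 and 4.20 on control arrays 1 to 5. It rose by 2.33 ± 0.18 (adjusted p = 0.00056), with inflamed array 3 the highest, where Xcl1 and Klrd1 were lowest. The other Ly49 genes measured, Klra3, Klra6, Klra7, Klra9, Klra10 and Klra17, differed by -0.05 to 0.04 and did not pass. Ly49 genes are near copies of each other, so their signals may be shared.

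Klrc1, the inhibitory NKG2A chain that pairs with CD94, was at 4.29, 4.29 and 3.99 in inflamed colon, against 3.90, 3.76, 3.81, 3.79 and 3.80 in control colon. It rose by 0.38 ± 0.07 (adjusted p = 0.0164) and the groups did not overlap, though all values lay under 4.88. The call ended without inflamed array 1 (0.33, adjusted p = 0.0626). Klrc2 and Klrc3, the activating chains, differed by 0.09 and 0.03 (adjusted p = 0.316 and 0.558). Of the NKR-P1 family, Klrb1f, an activating receptor, was at 6.68, 6.18 and 4.99 in inflamed colon, against 4.64, 4.65, 4.39, 4.58 and 4.40 in control colon. Klrb1f rose by 1.42 ± 0.34 (adjusted p = 0.0345), a call that ended without inflamed array 1 or 2 or any 1 control (adjusted p = 0.0663 to 0.0926) or with the floor (1.07, adjusted p = 0.13). Klrb1b, its inhibitory relative, differed by 0.53 ± 0.15 without overlap (adjusted p = 0.0631), and Klrb1 and Klrb1a by -0.02 and -0.10.

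**Figure D2:**
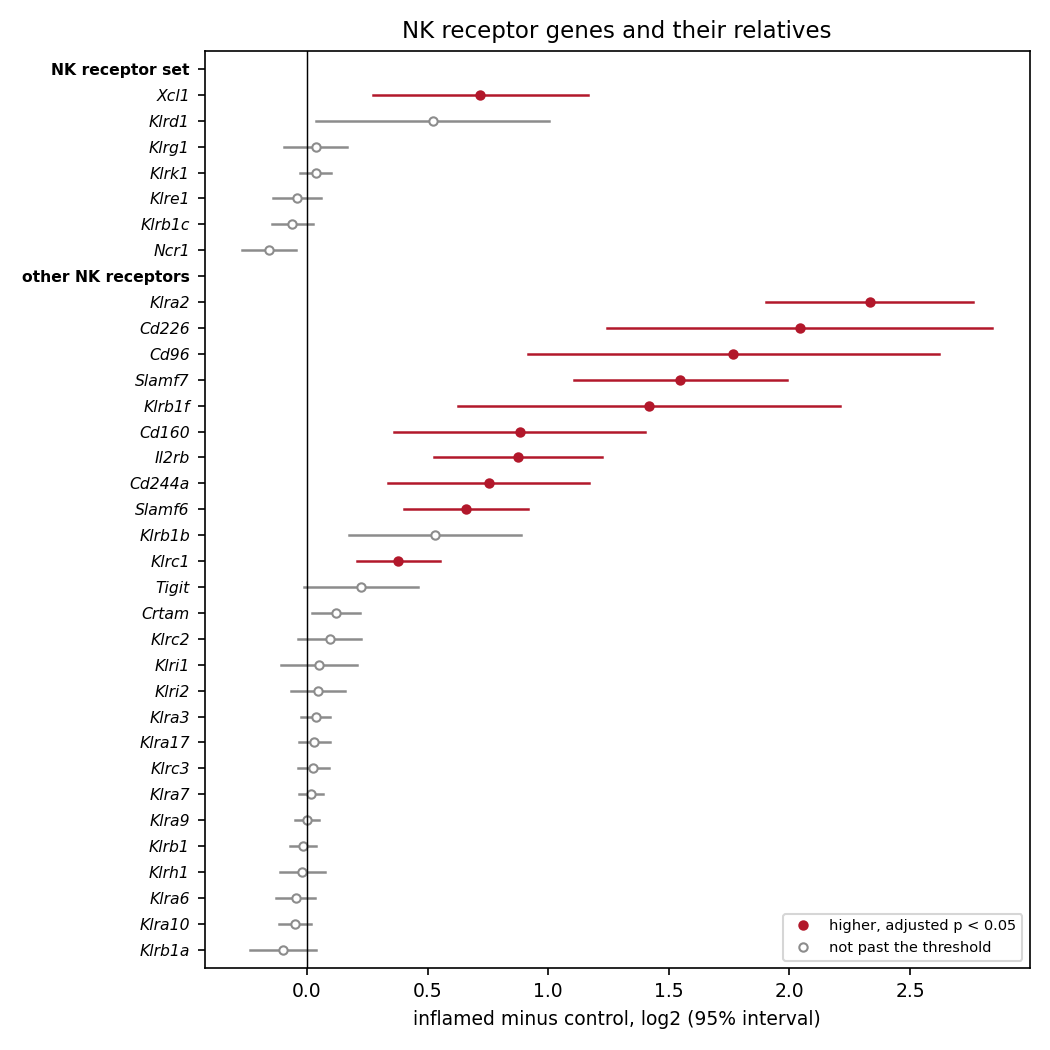
Difference in log2 intensity, inflamed minus control, with its 95% limma interval, for the 7 NK receptor genes and 26 other receptors (n = 3 inflamed and 5 control). Filled red points passed an adjusted p of 0.05 and open points did not. Xcl1 is the only filled point of the upper group, while 10 of the lower group are filled, from Klrc1 at 0.38 to Klra2 at 2.33.

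Cd226 and Cd96, receptors for nectin-like ligands on NK and T cells, had the largest differences of the list after Klra2. Cd226, the activating receptor DNAM-1, was at 6.56, 6.05 and 4.83 in inflamed colon, against 3.80, 3.83, 3.79, 3.70 and 3.73 in control colon, and rose by 2.04 ± 0.34 (adjusted p = 0.00926). With a floor at the median, which lifts all its control values, the Cd226 difference was 0.95 and the call ended (adjusted p = 0.167). Its competitor Cd96 was at 7.25, 6.74 and 5.58 in inflamed colon, against 5.24, 4.72, 4.46, 4.71 and 4.63 in control colon, and rose by 1.77 ± 0.36 (adjusted p = 0.0205). The Cd96 call ended without inflamed array 1 or 2 or control 2, 3, 4 or 5 (adjusted p up to 0.0594). Tigit, the inhibitory receptor for the same ligands, differed by 0.22 (adjusted p = 0.195). Slamf7, an adhesion receptor of NK, T and myeloid cells, rose by 1.55 ± 0.19 (adjusted p = 0.00272). Cd160 rose by 0.88 ± 0.22 (adjusted p = 0.0412), which ended without any 1 of the 8 arrays except inflamed array 3, and with the floor (adjusted p = 0.0765). The floor left the Cd160 difference at 0.88, since all its values lie above the floor. Il2rb, the chain that binds interleukins 2 and 15, rose by 0.87 ± 0.15 (adjusted p = 0.01).

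T cell markers were higher in inflamed colon too, where 8.06% of all genes were called higher. Of 13 measured T cell markers 11 rose and 0 fell (7 with a floor on low values), with a median difference of 1.34, and their mean level was 6.76, 6.15 and 5.92 on inflamed arrays 1, 2 and 3, against 5.02 to 5.11 in control colon. Cd3e, a signalling chain of the T cell receptor, rose by 2.07 ± 0.18 (adjusted p = 0.000872), Cd3g rose by 1.99 ± 0.27 (adjusted p = 0.00444) and the adaptor Trat1 rose by 2.20 ± 0.34 (adjusted p = 0.00676, but 1.04 and 0.142 with the floor). Single markers did not all take the order of that mean, which 7 of the 13 did, while array 1 was the highest inflamed array for 11. Inflamed array 1 was highest and array 3 lowest for the T cell mean, and likewise for Xcl1, Klrd1, Klrb1f, Cd226 and Cd96. Of the other called receptors named here, Slamf7 and Cd160 took this order. Klra2 took the reverse (6.16, 6.44 and 7.03), Il2rb was lowest on array 2 (7.08, 6.56 and 6.60), and Klrc1 was at 4.29 on both arrays 1 and 2. Array 3 was also the single inflamed array with Xist and without Y-linked transcripts, the pattern of a female mouse, which control arrays 3, 4 and 5 shared. With this pattern as a block, the Xcl1 difference was 0.61 (adjusted p = 0.032) and the Klrd1 difference was 0.43 (adjusted p = 0.211). Ncr1, Klrb1c and Klrg1 did not take that order, and Klrk1 and Klre1 varied by less than 0.10 log2 units among the inflamed arrays. The part of T cells in the rise of Xcl1 was not tested.

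**Figure D3:**
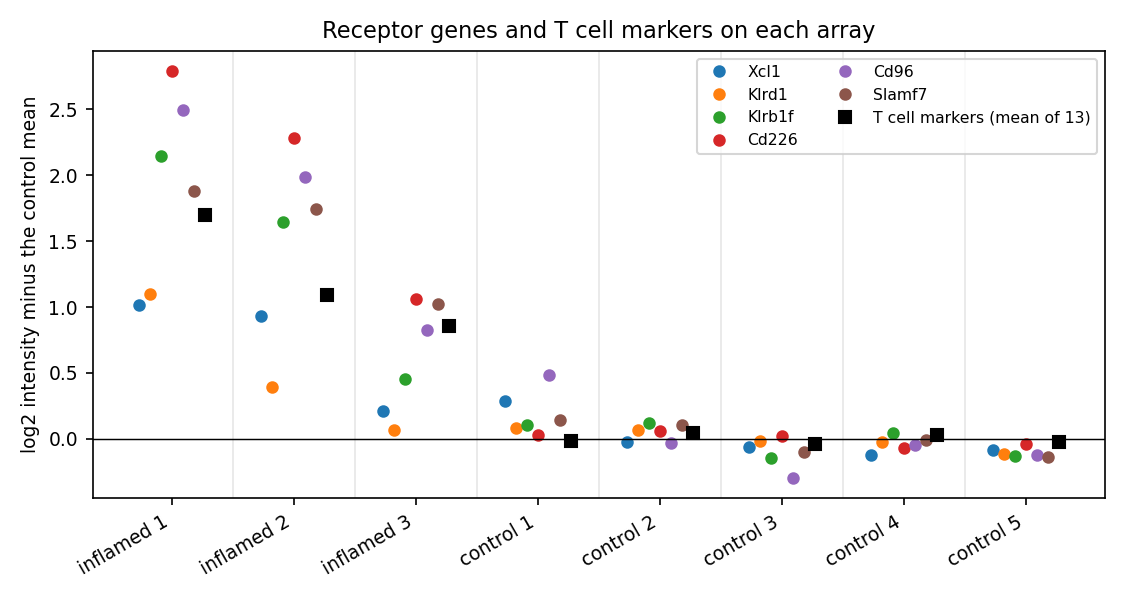
Log2 intensity minus the control mean on each of the 8 arrays, with inflamed arrays at the left, for Xcl1, Klrd1, 4 other receptors (circles) and the mean of 13 T cell markers (black squares). The T cell mean was 6.76, 6.15 and 5.92 on inflamed arrays 1, 2 and 3. The genes shown share its order, unlike Klra2 and Il2rb, which are not shown. Klrd1 and Xcl1 were close to the controls on inflamed array 3.

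Other lymphoid and myeloid markers gave mixed counts, to be read beside 8.06% of all genes called higher and 5.04% lower. Of 6 measured markers of group 2 innate lymphoid cells, which carry Klrg1, 1 rose and 0 fell, with a median difference of 0.02. Their mean was at 5.59 to 5.98 in inflamed colon and 5.40 to 5.45 in control colon, and without Arg1, a gene also of macrophages that did not pass (adjusted p = 0.16), at 5.35 to 5.62 in inflamed colon and 5.41 to 5.47 in control colon, which overlap. The number that rose was 0 without inflamed array 2 or any 1 control, and 2 without inflamed array 3. Of 9 measured markers of group 3 innate lymphoid cells, some of which carry Ncr1, 3 rose and 1 fell, with a mean of 5.58 to 5.70 in inflamed colon and 5.58 to 5.67 in control colon. The fall was that of Kit, by 1.39 ± 0.17 (adjusted p = 0.00272), a gene also of mast cells and gut pacemaker cells, and Il22 rose by 0.60 ± 0.07 (adjusted p = 0.00206). Only 2 of these 4 calls were made without inflamed array 1 or control 1, 2, 3 or 4. All 10 macrophage and monocyte markers and all 6 pan-leukocyte markers rose, with the leukocyte gene Ptprc up by 2.62. Neutrophil markers had 4 of 7 higher, led by S100a8. B cell markers had 0 of 5 called in limma, 0 at an unadjusted p under 0.05 and 0 under every alternative run, with means of 4.49 to 4.52 in inflamed colon and 4.51 to 4.54 in control colon. Colon epithelium markers had 1 higher and 2 lower of 7, and muscle markers 4 lower of 5, and without control 2 or 5 a single epithelium marker passed. The epithelium mean was 12.1 to 12.4 in inflamed colon and 12.3 to 12.4 in control colon, and the muscle mean was 10.46 to 10.64 in inflamed colon and 11.02 to 11.56 in control colon.

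Adaptors and signalling genes that NK receptors use had 7 of 13 higher and 0 lower, against 8.06% and 5.04% of all genes. Tyrobp (DAP12), the adaptor of activating lectin-like receptors and of many myeloid receptors, rose by 2.04 ± 0.20 (adjusted p = 0.00127). Fcer1g, the adaptor that NKp46 uses and that carries Fc receptors on myeloid cells, rose by 1.66 ± 0.21 (adjusted p = 0.00289). Both were highest on inflamed array 3, at 8.45 and 7.93, where Xcl1, Klrd1 and the T cell mean were lowest of the 3. Vav1, a Rac activator of most leukocytes, rose by 0.82 ± 0.09 (adjusted p = 0.00151). Hcst (DAP10), the adaptor of NKG2D, differed by 0.12 ± 0.09 (adjusted p = 0.412), and Cd247, Sh2d1a, Sh2d1b1 and Sh2d1b2 did not pass. The list's count was 4 without inflamed array 1 or 3 or without control 2.

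Ligands and partners of the receptors went both ways. Of 11 measured, 2 were higher and 1 was lower, against 8.06% of all genes higher and 5.04% lower. Whether counts this small differ from those shares was not tested. H60c, a ligand of NKG2D, was at 6.74, 6.12 and 5.49 in inflamed colon, against 4.97, 4.94, 5.00, 4.99 and 4.92 in control colon. H60c rose by 1.15 ± 0.24 (adjusted p = 0.0216) while Klrk1, its receptor, differed by 0.04, and the call ended without inflamed array 2 or control 2, 4 or 5 (adjusted p = 0.0526 to 0.0551). Clec2d, the ligand of the inhibitory NKR-P1B receptor, fell by 0.69 ± 0.13 (adjusted p = 0.0143), at 10.76, 10.95 and 10.47 in inflamed colon, against 11.34, 11.45, 11.61, 11.48 and 11.18 in control colon. Clec2i, a related ligand, rose by 0.35 ± 0.03 (adjusted p = 0.000996). Cdh1, the E-cadherin that Klrg1 binds, differed by 0.02 ± 0.05 (adjusted p = 0.864). Xcr1, the receptor for Xcl1, lay at 3.50 to 3.68 in inflamed colon and 3.49 to 3.58 in control colon, under 4.88 throughout (difference 0.04, adjusted p = 0.601). The Raet1 genes, H60a, H60b and H2-T23 had no probe set of their own and are not analysed here. Markers of Xcr1-bearing dendritic cells had 1 of 8 higher and 0 lower, with means of 6.36 to 6.68 in inflamed colon and 6.10 to 6.22 in control colon. That count was 0 without control 3, 4 or 5 and 2 without inflamed array 2. The list's means lean on Itgae, at 8.17, 6.89 and 6.12 in inflamed colon, which differed by 1.45 without passing (adjusted p = 0.0533). The median difference of the list was 0.10.

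Transcription factors of NK cells and group 1 innate lymphoid cells had 4 of 9 higher and 1 lower. The shares over all genes were 8.06% higher and 5.04% lower. Prdm1 rose by 1.73 ± 0.16 (adjusted p = 0.00112), Ets1 rose by 1.14 ± 0.13 (adjusted p = 0.00201), Id2 rose by 0.98 ± 0.17 (adjusted p = 0.0104) and Runx3 rose by 0.36 (adjusted p = 0.0155). These 4 are active in T cells or other leukocytes too. Eomes, which sets NK cells apart from group 1 innate lymphoid cells, differed by 0.20 ± 0.06 without overlap between groups (adjusted p = 0.0686). Tbx21, the gene of T-bet, differed by 0.03 ± 0.12 (adjusted p = 0.878). Tox, needed for NK cell development, fell by 0.50 ± 0.12 (adjusted p = 0.0375), a call that ended without any 1 array other than inflamed array 2 (adjusted p = 0.0643 to 0.119).

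**Figure D4:**
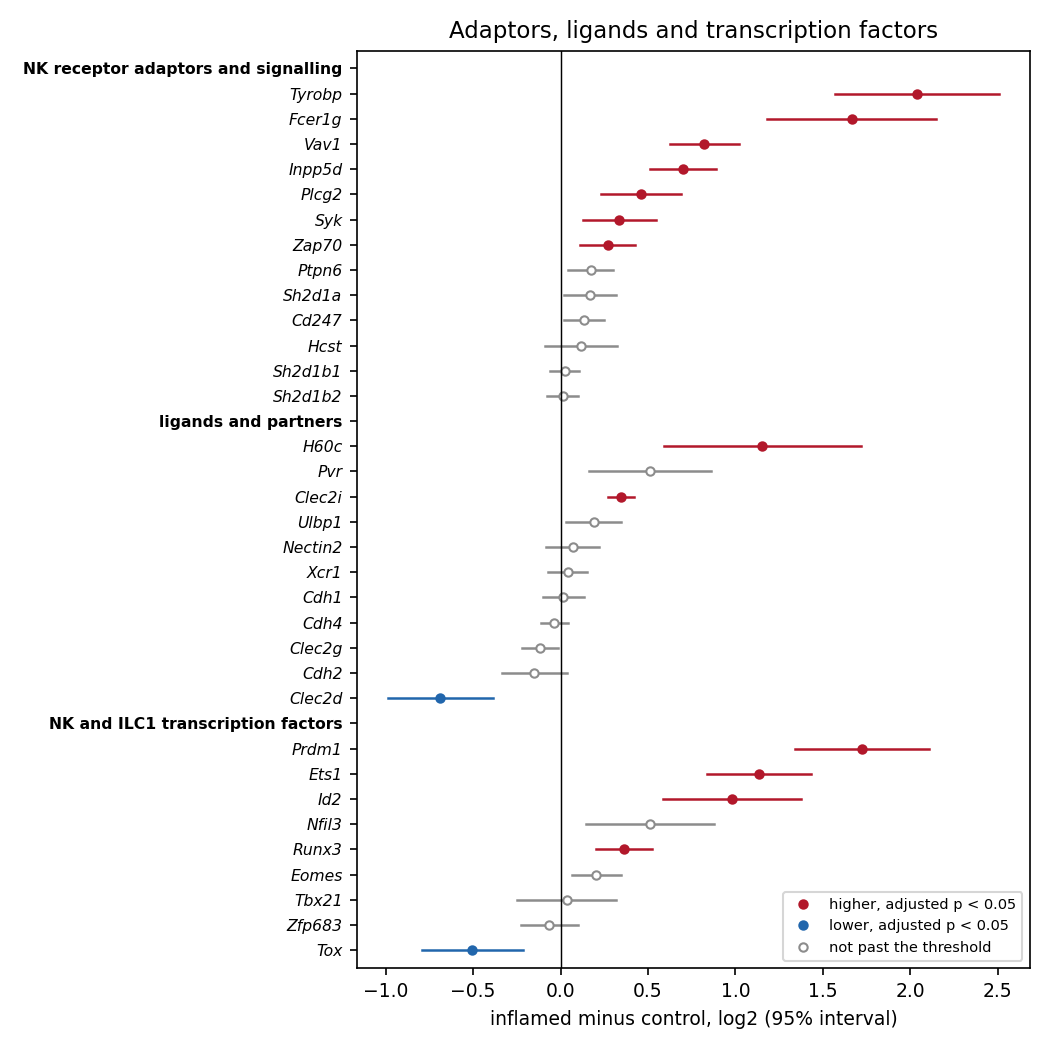
Difference in log2 intensity, inflamed minus control, with its 95% limma interval, for adaptors and signalling genes, ligands and partners, and transcription factors (n = 3 inflamed and 5 control). Red points rose, blue points fell and open points did not pass an adjusted p of 0.05. Tyrobp (2.04) and Prdm1 (1.73) lead their groups, and Clec2d (-0.69) and Tox (-0.50) fell.

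Cytotoxic effector genes had 10 of 13 higher and 0 lower (6 called with a floor on low values), with a median difference of 1.15. Beside this, 8.06% of all genes were called higher and 5.04% lower. The granzymes Gzma and Gzmb and the chemokine Ccl5 led, and their inflamed values were highest on array 1 (9.80, 9.67 and 9.82), as for Xcl1 and Klrd1. Prf1, the perforin gene, differed by 0.09 (adjusted p = 0.522) at a level near 4.88. Among cytokines and receptors that sustain NK cells, 5 of 11 rose and 1 fell (3 called with the floor). Il18rap rose by 1.75 ± 0.15 (adjusted p = 0.000729) and Il18r1, the other chain of the interleukin 18 receptor, rose by 1.07 ± 0.20 (adjusted p = 0.0135). Il15, the survival cytokine of NK cells, fell by 0.76 ± 0.16 (adjusted p = 0.025), a call that ended without inflamed array 1 or 3 or control 1, 4 or 5 (adjusted p = 0.0572 to 0.0887).

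Likeness to each member was measured by Pearson's r over the 8 arrays among 15350 other genes brighter than the median gene, as a description in which group difference and chance both count. For Xcl1 the closest genes were Fam185a and Gm12818, for Klrd1 Skp1 and Prkd3, and for Ncr1 Nmnat1 and Nedd4l. Klrb1c came closest to Mir383 and Narf, Klrk1 to Klhdc10 and B230216N24Rik, Klre1 to Gm16973 and Uvssa, and Klrg1 to Gm11613 and Rab20. The r of these 14 pairs ranged from 0.925 to 0.991. No member was among the closest genes of another, since members were left out of the search, and none of the 14 is on the lists of NK or T cell genes used here.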

How the data were processed

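Biotin-labelled RNA of 8 colons was hybridised to Affymetrix arrays, 1 per mouse, per the labels' protocols. The deposited table gives a log2 intensity for each probe set. Per the submitters' processing notes these values came from RMA in Affymetrix Expression Console, which corrects background, normalizes arrays against each other and sums probes. Version and settings were not given in the sources used. The log2 scale was taken from the values. RMA compresses low signals, so differences of dim genes are understated. The files hold no detection calls, and the small number of arrays limits the precision.

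Of 72688 probe sets, 65956 transcript clusters were kept and 6732 controls left out. Annotation covered 32750 probe sets, and 1492 of them, which map to more than 1 gene, were not used by name. The rest carried a single symbol (30604) or synonyms of the same gene (654). Symbols were updated through RefSeq's GRCm38.p6 table, and the brightest probe set per gene gave 30702 genes. The probe annotation is that of the platform.

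Groups were compared with limma 3.58.1 in R 4.3.3 (lmFit, eBayes, no covariate), called at a Benjamini-Hochberg adjusted p under 0.05. The fit was tested on simulated data of 30702 genes. It recovered 88% of 100 genes shifted by 1 log2 unit and 97% of 100 shifted by 2 units, with 11 false calls. Whether these figures hold for the colon arrays was not tested. On those arrays 4022 genes were called, and 39.7% of genes had the same value on 3 or more arrays. Spread could also differ between groups, as for Klrd1 (SD 0.53 in inflamed colon and 0.08 in control colon). Array pairs correlated at 0.986 to 0.995 between inflamed arrays, 0.98 to 0.986 between groups and 0.994 to 0.997 between controls, and no arrays were duplicates. Inflamed array 3 and control arrays 3, 4 and 5 had Xist, and the others Y-linked transcripts.

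The members and lists were chosen with earlier results of these data known. All 7 members were named with every array's value. Of other lists at most 3 called genes with the largest differences were to be named (6 for receptors and ligands), of which those bearing on the members are given, and the 2 most alike genes per member. Genes outside this rule (Klrc1, Klrc2, Klrc3, Klrb1, Klrb1a, Klrb1b, the other Klra genes, Tigit, Il2rb, Hcst, Cd247, the Sh2d1 genes, Cdh1, Xcr1, Runx3, Eomes, Tbx21, Tox, Prf1 and Arg1) were named for their role after their values were seen. Itgae was named for the largest difference of its list.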

Additional observations from a re-analysis of the deposited data

Results flagged for a closer look

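Among 79 named genes, 14 had 1 control array apart from the other 4 by Dixon's criterion, which weighs a gap against the range of the 5 values. Chance alone marks about 1 in 20 groups where values are normal and do not repeat. Many dim genes here repeat a value between arrays, so a tiny gap can be marked, as for Klra7 (3.27 against 3.28). The 14 of 79 therefore cannot be set against that rate. Of the members, Klre1 was at 3.50 on control 5, against 3.34 for the nearest control. Xcl1 was at 6.01 on control 1, against 5.70 for the nearest control, and that array is the 1 that overlapped inflamed array 3.

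Control 1 was lowest for Hcst (6.23) and Klra7 (3.27) and highest for Cdh1 (12.01). Control 2 was lowest for Rora, a factor of group 2 innate lymphoid cells (5.66), and for Klra17 (3.52). Control 3 was lowest for Klra3 (3.15) and Sh2d1b1 (4.05). Control 4 was lowest for Klrc3 (3.45) and highest for Klrb1a (3.97), Klra10 (3.10) and Sh2d1b2 (4.93). Control 5 was lowest for Vav1 (5.94).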

How the results depend on the processing

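The differences of all 7 members kept their direction in every alternative that gave a value. With a floor at the median, Ncr1, Klrb1c, Klrk1, Klre1 and Klrg1 had no difference left to test, and with dim genes left out these and Klrd1 were not tested. Against 1 member higher and 0 lower in the main comparison, the number higher was 0 with the floor, the replicate block, the arrays with Y-linked transcripts alone or all transcript clusters tested, and 0 to 2 when an array was left out. The number lower was 1 with array weights (Ncr1) and 0 otherwise. The Xcl1 difference ranged from 0.57 to 0.97 (adjusted p = 0.0057 to 0.23) and that of Klrd1 from 0.17 to 0.75 (adjusted p = 0.0438 to 0.505). Over all genes 4022 were called, 2510 to 4573 when an array was left out, 5695 with array weights, and 0 with the replicate block (4918 at an unadjusted p under 0.05) or with the Y-linked arrays alone (4597). The Y-linked arrays are only inflamed arrays 1 and 2 and control arrays 1 and 2. In the replicate block, controls 4 and 5 have no inflamed partner. Both fits thus rest on few arrays and could make few calls. Same-numbered arrays of the groups deviated with r of -0.285, -0.05 and 0.07, and differently numbered ones with r of -0.218 to 0.346. With so few arrays these r cannot tell whether the numbers pair the mice. Under the block the Xcl1 difference was 0.65 (adjusted p = 0.23). With the Xist pattern as a block Xcl1 passed (0.61, adjusted p = 0.032). Centring arrays on their median split the calls into 3126 higher and 1270 lower, against 2476 and 1546. The causes of these changes were not tested.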
